A study of Mus musculus with 7 samples.

Results

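The cell cycle and proliferation genes are 44 genes picked by name for their known roles. No measured value was used as a rule for the choice, but earlier results of these data were known when it was made. Each of the genes was found in the deposited table of 22880 genes from optic nerves of mice at postnatal day (P) 14. They were divided by role into 3 D-type cyclins, 3 inhibitors of cyclin-dependent kinases (CDK), 15 genes of G1/S and S phase and 23 genes of G2 and mitosis. The control mice (CT, n = 4) were FASN lox/lox and the mutant mice (cMU, n = 3) were olig2cre FASN lox/lox, so by the label of each sample both groups were homozygous for the floxed fatty acid synthase gene, and Cre recombinase was present in cMU only. Both were of the C57Bl/6 background. Cre was driven by Olig2 regulatory elements, so that cells outside the Olig2 lineage kept an intact gene, and the presence of Cre and the loss of Fasn cannot be told apart in this design. Both optic nerves of 1 mouse made 1 sample.

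The values are FPKM, fragments scaled for transcript length and library size, of polyadenylated RNA from whole nerve, with 27452222 to 43462575 reads per sample. Fasn, the targeted gene, was listed at 210.3, 169.1, 211.1 and 228.3 FPKM in CT 1 to 4 and at 69.3, 50.5 and 49.0 FPKM in cMU 1 to 3. The groups did not overlap, and the log2 fold change was -1.86 ± 0.14 (SE, adjusted p = 0.00312). Every fold change here is a difference of log2(FPKM + 0.5), cMU minus CT, from limma-trend over 13866 tested genes with Benjamini-Hochberg adjustment.

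A dividing cell passes a G1 checkpoint, copies its DNA in S phase and separates the chromosomes in mitosis. D-type cyclins with CDK4 and CDK6 relieve the block that retinoblastoma proteins put on E2F factors, which then turn on the genes of DNA replication, whereas genes of G2 and mitosis are switched on later, and CDK inhibitors hold the cycle back. In the young optic nerve, the dividing cells are mainly glia, among them oligodendrocyte progenitor cells (OPCs), which leave the cycle as they become oligodendrocytes (OLs), and D-type cyclins and CDK inhibitors are also made by cells that no longer divide. The comparison asked whether transcripts of the division machinery differed between nerves with and without fatty acid synthesis in the OL lineage.

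Data show no cell cycle gene past the threshold. All 44 members passed the filter of 0.5 FPKM in at least 3 samples, and 0 of 44 had an adjusted p under 0.05 by limma-trend, where 2.62% of all tested genes did. A count of 0 among 44 genes is close to that share. An unadjusted p under 0.05 was reached by 5 members (Ccnd1, Ccnd2, Ccnd3, Cdkn1a and Birc5), or 5 of 44 against 24.4% of all tested genes. The lowest adjusted p of a member was 0.0820, for Cdkn1a. Values of the groups did not overlap for 3 members, higher in cMU for Ccnd2 and lower in cMU for Ccnd1 and Birc5. Among all tested genes 21.1% had groups without overlap, 12.9% with cMU higher and 8.26% with cMU lower.

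Levels varied widely among members, and by sample much less. Mean CT levels ran from 0.977 FPKM for Ccne2 to 68.4 FPKM for Pcna, with a median of 4.94 FPKM over the 44 genes. The estimated number of reads behind a value lay between 54 and 5394. The median log2 fold change of the members was -0.03, with 20 higher and 24 lower in cMU, beside 0.05 for all tested genes. Since the nerve was taken whole, fewer cells of a type and less RNA per cell cannot be told apart.

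**Figure D1:**
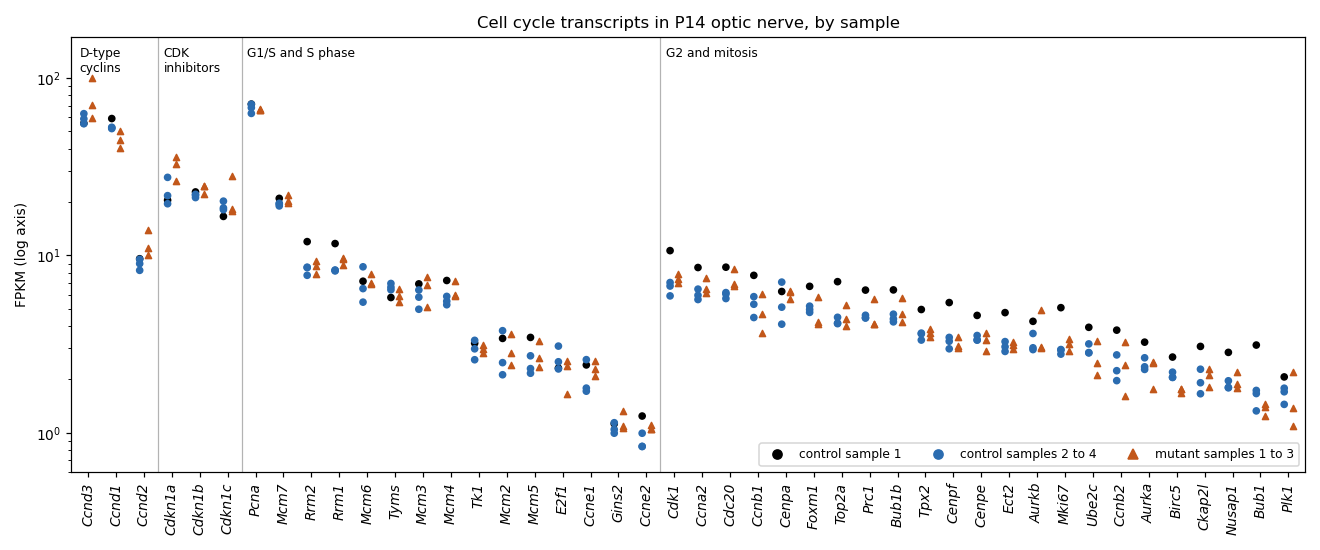
FPKM of the 44 genes in each sample on a log axis, ordered within each class by the mean of CT; circles are CT samples, black for CT 1, and triangles are cMU samples. In the class of G2 and mitosis, CT 1 is the highest of the 7 samples for 20 of 23 genes.

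The D-type cyclins, which carry growth signals into the cycle, moved in different directions. Ccnd1 (chromosome 7, 144929931 to 144939869, minus strand, GRCm38) is the D-type cyclin most tied to mitogens. It was measured at 59.1, 52.8, 52.4 and 51.9 FPKM in CT 1 to 4 and at 40.4, 50.3 and 44.6 FPKM in cMU 1 to 3. Every cMU sample lay below every CT sample. The log2 fold change was -0.26 ± 0.08 (SE) with an adjusted p of 0.114, and without cMU 2 it was -0.34 with an adjusted p of 0.0474, the only setting of the 16 tried in which a member passed the threshold.

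Ccnd2 (chromosome 6, 127125779 to 127151048, minus strand) was measured at 9.58, 8.24, 8.98 and 9.51 FPKM in CT 1 to 4 and at 13.9, 10.99 and 10.1 FPKM in cMU 1 to 3. Here every cMU sample lay above every CT sample, with cMU 1 the highest. Its log2 fold change was 0.33 ± 0.11 (SE), the adjusted p 0.126 and the 95% interval of the fold 1.05 to 1.504. Ccnd3 (chromosome 17, 47505051 to 47599691, plus strand) was measured at 55.6, 55.3, 63.0 and 58.9 FPKM in CT and at 100.3, 59.5 and 70.9 FPKM in cMU. The groups overlapped in cMU 2 and CT 3, and cMU 1 stood far above the rest. The log2 fold change of 0.37 ± 0.15 (SE, adjusted p = 0.179) was 0.16 without cMU 1.

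All CDK inhibitors of the set had a higher mean in cMU, and none passed the threshold. Cdkn1a (chromosome 17, 29090979 to 29100722, plus strand) encodes p21, a target of p53 that is induced by many kinds of stress. It was measured at 20.5, 19.6, 27.5 and 21.7 FPKM in CT 1 to 4 and at 35.99, 32.9 and 26.4 FPKM in cMU 1 to 3. The groups overlapped only through CT 3 and cMU 3. With means of 22.3 ± 3.59 (SD, n = 4) and 31.8 ± 4.90 FPKM (SD, n = 3), this was the largest log2 fold change among the members, at 0.50 ± 0.14 (SE). Its 95% interval corresponds to a fold of 1.14 to 1.75, and the sign was kept in 16 of 16 settings.

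Cdkn1b encodes p27, which restrains the division of OPCs. Its level was even across the nerves, at 22.8, 22.1, 21.9 and 21.2 FPKM in CT and 24.5, 24.5 and 22.1 FPKM in cMU. Its log2 fold change was 0.11 ± 0.06 (SE, adjusted p = 0.337), with an interval of the fold from 0.973 to 1.19. Cdkn1c, an imprinted gene for p57, was measured at 16.6, 18.5, 18.1 and 20.2 FPKM in CT and at 27.9, 17.9 and 18.2 FPKM in cMU. Only cMU 1 lay above the CT samples. Its log2 fold change of 0.18 ± 0.15 (SE, adjusted p = 0.486) became -0.02 without that sample.

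**Figure D2:**
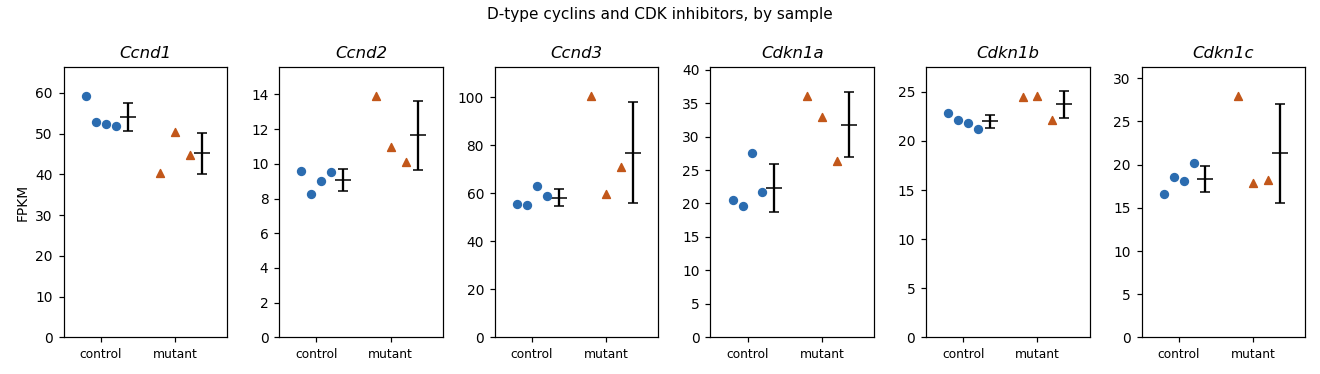
FPKM of the D-type cyclins and CDK inhibitors in 4 CT samples (circles) and 3 cMU samples (triangles), with the mean and SD of each group as bars; the first symbol of each group is sample 1. In cMU the highest sample is cMU 1 for Ccnd2, Ccnd3, Cdkn1a and Cdkn1c, whereas cMU 1 is the lowest of all for Ccnd1.

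Genes of G1/S and S phase were at nearly the same level in both genotypes. Of the 15 genes, 0 had an unadjusted p under 0.05, 10 had a higher and 5 a lower mean log2 level in cMU, and the median log2 fold change was 0.05. Fold changes on the log2 scale ran from -0.19 for E2f1 to 0.11 for Ccne1. On the scale of FPKM + 0.5, the 95% interval of the fold lay within 1.5-fold in either direction for 15 of 15 genes. Under TMM scaling the median was -0.01 with 6 of 15 higher, while the median of all tested genes moved from 0.05 to -0.02.

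Pcna, the sliding clamp of DNA polymerases (chromosome 2, 132249162 to 132253314, minus strand), had the highest level of all members. It was listed at 71.3, 68.1, 63.2 and 71.2 FPKM in CT 1 to 4 and at 66.9, 66.4 and 65.8 FPKM in cMU 1 to 3. All cMU values lay inside the range of CT, and the log2 fold change was -0.04 ± 0.06 (SE), with a fold between 0.883 and 1.07. Mcm7, a subunit of the replicative helicase, was about as even, at 21.0, 19.5, 19.0 and 19.7 FPKM in CT and 20.2, 19.6 and 21.9 FPKM in cMU.

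The other helicase subunits spread more from nerve to nerve. Mcm2 was measured at 3.403, 2.12, 2.48 and 3.76 FPKM in CT and at 3.59, 2.40 and 2.82 FPKM in cMU. The range of cMU lay within that of CT, and the log2 fold change was 0.01 ± 0.19 (SE). Mean levels in CT and cMU were 6.02 ± 0.8292 and 6.49 ± 1.26 FPKM for Mcm3, 5.97 ± 0.870 and 6.36 ± 0.732 FPKM for Mcm4, 2.66 ± 0.577 and 2.75 ± 0.474 FPKM for Mcm5, and 6.93 ± 1.33 and 7.26 ± 0.553 FPKM for Mcm6 (SD, n = 4 and n = 3). Gins2, a partner of the helicase, had means of 1.08 ± 0.0683 and 1.16 ± 0.140 FPKM. Each of these differences was smaller than the larger of the SDs of CT and cMU.

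Among the genes that supply nucleotides, Rrm1, the large subunit of ribonucleotide reductase, was measured at 11.7, 8.18, 8.24 and 8.27 FPKM in CT 1 to 4 and at 9.69, 8.77 and 9.53 FPKM in cMU 1 to 3. CT 1 stood above all other samples, and the cMU samples lay between it and the other CT samples. Its log2 fold change was 0.05 ± 0.13 (SE, adjusted p = 0.841). For the small subunit Rrm2, CT 1 was again the highest sample, with CT at 11.96, 8.53, 7.72 and 8.58 FPKM, beside 8.71, 7.88 and 9.32 FPKM in cMU. Tyms, which makes thymidylate, had means of 6.44 ± 0.488 FPKM in CT and 5.96 ± 0.497 FPKM in cMU, and Tk1, a thymidine kinase, of 3.02 ± 0.325 and 2.96 ± 0.144 FPKM (SD, n = 4 and n = 3).

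The regulators of S phase entry were near the bottom of the range. E2f1, an activator of replication genes, was measured at 2.31, 2.51, 2.29 and 3.08 FPKM in CT and at 2.53, 1.66 and 2.39 FPKM in cMU, with an adjusted p of 0.482. The E-type cyclins, partners of CDK2, had means of 2.12 ± 0.438 and 2.31 ± 0.225 FPKM for Ccne1 and of 0.977 ± 0.191 and 1.07 ± 0.0289 FPKM for Ccne2 in CT and cMU (SD, n = 4 and n = 3). Groups overlapped for all 15 genes of the class.

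Genes of G2 and mitosis were lower on average in cMU, a direction that turned when 1 CT sample was left out. The log2 fold change was below 0 for 18 of 23 genes and above 0 for 5, with a median of -0.09, and 0 of 23 passed the threshold. Without CT 1, 9 of 23 were lower and 14 higher, and the median was 0.02, beside 0.05 for all tested genes. Without both samples numbered 1 it was -0.05, with 15 of 23 lower. Under TMM scaling and on normalized counts 21 of 23 were lower, with medians of -0.16 and -0.18. The medians of all tested genes were then -0.02 and -0.03. CT 1 was the highest of the 7 samples for 20 of 23 genes and the highest CT sample for 22 of 23, where it was so for 13.5% and 31.6% of all tested genes. Its FPKM exceeded the median of the other CT samples by 1.21-fold to 1.88-fold, with a median of 1.43-fold over the class, beside 1.01-fold over all tested genes and 1.19-fold over the genes of G1/S and S phase.

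Mki67, which encodes the Ki-67 coat protein of mitotic chromosomes (chromosome 7, 135689788 to 135716379, minus strand), was measured at 5.07, 2.77, 2.92 and 2.94 FPKM in CT 1 to 4 and at 3.39, 2.88 and 3.16 FPKM in cMU 1 to 3. CT 1 was the highest, and the other 6 samples overlapped in a narrow range. The log2 fold change was -0.07 ± 0.19 (SE, adjusted p = 0.840), with a fold between 0.710 and 1.27. Top2a, the topoisomerase that untangles replicated chromosomes (chromosome 11, 98992943 to 99024189, minus strand), was also highest in CT 1, at 7.11, 4.12, 4.48 and 4.15 FPKM in CT and 5.27, 3.99 and 4.37 FPKM in cMU. Its log2 fold change was -0.09 ± 0.18 (SE).

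Cdk1, the kinase that starts mitosis, was listed at 10.6, 7.03, 6.72 and 5.91 FPKM in CT and at 7.89, 7.39 and 6.99 FPKM in cMU. The means of 7.58 ± 2.10 and 7.42 ± 0.450 FPKM (SD, n = 4 and n = 3) were nearly equal, with a log2 fold change of 0.00 ± 0.17 (SE). Its partner Ccna2 had means of 6.65 ± 1.31 and 6.68 ± 0.703 FPKM. Ccnb1, a B-type cyclin, was measured at 7.72, 5.85, 5.30 and 4.46 FPKM in CT and at 6.02, 4.69 and 3.64 FPKM in cMU. Each cMU sample lay below the CT sample of the same number. The limma-trend fit with the number as a block gave a log2 fold change of -0.37 with an adjusted p of 0.0683, against -0.26 with 0.438 in the fit without it. CT 4, the lowest CT sample for Ccnb1, has no cMU sample of its number. It therefore adds nothing to the fold change of the block fit, which differs from the main fit in this as well. Ccnb2 was measured at 3.79, 1.97, 2.75 and 2.24 FPKM in CT and at 3.23, 1.61 and 2.41 FPKM in cMU.

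To show what the members share besides their role, the window from 250 bases before to 50 bases after the start of each gene was taken from RefSeq (GRCm38.p6), which gave 39 windows for 34 of the 44 genes. No window was given for Ccnd1, Ccnd2, Cdkn1c, Ccne2, Mcm4, Gins2, Ccna2, Foxm1, Aurkb and Tpx2. The windows were searched on both strands for the CHR element of late cell cycle genes (TTTGAA or TTCGAA), for CCAAT, and for 4 forms of the E2F site (TTTGGCGC, TTTCCCGC, TTTGCCGC and TTTCGCGC). The letters can overlap one another, and a gene was counted once for each motif.

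The stretches of 150 bases just before the start are shown for Mki67, Top2a and Ccnb2, of the mitotic class, and for Mcm6 and Rrm1, of S phase, because the classes differ in these letters and because Mki67, Top2a and Rrm1 were among the genes for which CT 1 stood apart. Capitals mark the letters of the 3 motifs, and each sequence is written 5′ to 3′ on the strand of its gene. The positions are chr7:135716380-135716529 (minus strand) for Mki67, chr11:99024190-99024339 (minus) for Top2a, chr9:70421555-70421704 (minus) for Ccnb2, chr1:128359706-128359855 (minus) for Mcm6 and chr7:102441545-102441694 (plus) for Rrm1. None of the stretches overlaps an exon of the GENCODE vM21 annotation.
Mki67: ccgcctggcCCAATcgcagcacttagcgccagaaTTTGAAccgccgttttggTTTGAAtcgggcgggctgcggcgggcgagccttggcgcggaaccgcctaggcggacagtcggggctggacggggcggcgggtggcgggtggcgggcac
Top2a: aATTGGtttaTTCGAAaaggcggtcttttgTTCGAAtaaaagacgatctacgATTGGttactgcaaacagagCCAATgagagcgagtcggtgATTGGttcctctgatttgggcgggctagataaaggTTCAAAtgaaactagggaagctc
Ccnb2: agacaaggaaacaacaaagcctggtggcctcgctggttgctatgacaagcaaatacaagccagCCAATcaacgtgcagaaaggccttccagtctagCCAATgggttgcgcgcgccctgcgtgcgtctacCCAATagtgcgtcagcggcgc
Mcm6: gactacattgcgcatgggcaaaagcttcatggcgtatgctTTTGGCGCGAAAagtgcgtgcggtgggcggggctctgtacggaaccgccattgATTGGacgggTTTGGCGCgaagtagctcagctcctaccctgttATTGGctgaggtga
Rrm1: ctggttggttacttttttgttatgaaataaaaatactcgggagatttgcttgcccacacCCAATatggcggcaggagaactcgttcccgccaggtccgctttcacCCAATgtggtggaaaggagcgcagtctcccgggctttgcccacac

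In the stretch of Mki67 the letters TTTGAA occur at 116 and 98 bases before the start, counted to their first base. Top2a holds TTCGAA at 140 and 120 bases and TTCAAA, the same element on the other strand, at 23 bases before the start, among several CCAAT boxes. Ccnb2 shows CCAAT boxes only in these 150 bases, and CHR letters elsewhere in its window. Mcm6 holds TTTGGCGC at 110 and 47 bases before the start, the first overlapped by GCGCGAAA, an E2F form on the other strand, and Rrm1 holds CCAAT boxes and neither of the other motifs. CHR letters were found for 15 of 19 mitotic genes (78.9%) and for 2 of 12 genes of S phase (16.7%), where 21.7% of all 27025 genes with a window had them. E2F letters were found for 4 of 12 genes of S phase (33.3%) and for 1 of 19 mitotic genes (5.26%, Cdk1), where 2.6% of all genes had them. CCAAT was found for 17 of 19 mitotic genes and 8 of 12 genes of S phase (89.5% and 66.7%), beside 41.1% of all genes. These matches are a description of the letters and carry no test.

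Birc5 and Bub1 had the lowest fold changes of the class. Birc5, which encodes survivin, a partner of Aurora B (chromosome 11, 117849251 to 117855743, plus strand), was measured at 2.67, 2.05, 2.05 and 2.20 FPKM in CT and at 1.76, 1.69 and 1.77 FPKM in cMU. It was the only mitotic gene whose groups did not overlap. For Birc5 the log2 fold change was -0.29 ± 0.12 (SE, adjusted p = 0.173), and without CT 1 it was -0.22. Bub1, a kinase of the spindle checkpoint (chromosome 2, 127801122 to 127831865, minus strand), was measured at 3.12, 1.66, 1.33 and 1.73 FPKM in CT and at 1.40, 1.24 and 1.44 FPKM in cMU. CT 1 was far above the rest, and CT 3 lay within the cMU samples. Its log2 fold change was the lowest of the members, at -0.35 ± 0.21 (SE, adjusted p = 0.340), and -0.15 without CT 1.

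Other kinases and regulators of mitosis overlapped between the groups. Aurkb, which encodes Aurora B, was measured at 4.25, 3.63, 2.94 and 3.01 FPKM in CT and at 4.90, 3.01 and 3.04 FPKM in cMU, with cMU 1 the highest sample. Plk1, a kinase of mitotic entry, was also highest in cMU 1, at 2.20 FPKM, with 2.06, 1.45, 1.702 and 1.78 FPKM in CT and 1.39 and 1.09 FPKM in cMU 2 and 3. Aurka, which encodes the Aurora kinase of the spindle poles, had means of 2.63 ± 0.439 and 2.25 ± 0.422 FPKM, and Foxm1, a transcription factor of mitotic genes, of 5.40 ± 0.879 and 4.71 ± 0.995 FPKM (SD, n = 4 and n = 3). Bub1b, a partner of Bub1 in the checkpoint, was equal on average, at 4.91 ± 1.00 and 4.88 ± 0.785 FPKM.

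Cdc20 and Ube2c work with the anaphase-promoting complex, which ends mitosis. Cdc20 was listed at 8.58, 5.71, 6.05 and 6.17 FPKM in CT 1 to 4 and at 8.36, 6.93 and 6.72 FPKM in cMU 1 to 3. All cMU samples lay between CT 1 and the other CT samples, and the log2 fold change of 0.15 ± 0.14 (SE, adjusted p = 0.561) was the highest of the mitotic genes. Ube2c was measured at 3.93, 2.82, 3.17 and 2.83 FPKM in CT and at 3.28, 2.10 and 2.48 FPKM in cMU, with a log2 fold change of -0.25 ± 0.16 (SE, adjusted p = 0.361).

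For the genes of centromeres and spindles, means in CT and cMU (SD, n = 4 and n = 3) were 5.63 ± 1.30 and 6.05 ± 0.352 FPKM for Cenpa, the centromeric histone, 3.70 ± 0.602 and 3.30 ± 0.388 FPKM for Cenpe, a kinetochore motor, and 3.78 ± 1.11 and 3.20 ± 0.251 FPKM for Cenpf, another kinetochore protein. Cenpa was the only gene of the class for which CT 1 was not the highest CT sample. The spindle proteins Tpx2, Nusap1 and Prc1 had means of 3.89 ± 0.726 and 3.66 ± 0.189, of 2.10 ± 0.4995 and 1.95 ± 0.209, and of 4.96 ± 0.943 and 4.63 ± 0.914 FPKM. Ect2, an exchange factor of cytokinesis, and Ckap2l, a spindle protein, had means of 3.49 ± 0.861 and 3.11 ± 0.127 and of 2.23 ± 0.613 and 2.07 ± 0.244 FPKM. In each of these the difference was smaller than the SD of CT.

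On the scale of FPKM + 0.5, the 95% interval of the fold lay within 1.5-fold in either direction for 19 of 23 mitotic genes. The same held for 37 of all 44 members, and on this scale 44 of 44 intervals lay within 2-fold. The mitotic genes with wider intervals were Ccnb1, Ccnb2, Bub1 and Ube2c, of which Bub1 reached a fold of 0.558. Among the G1 regulators, the intervals of Ccnd2, Ccnd3 and Cdkn1a passed 1.5-fold on the upper side, up to 1.75. These intervals hold for single genes and are not adjusted for their number. The added 0.5 understates the change of low genes, so the bounds on low genes rest partly on this scale. For Bub1 the log2 fold change was -0.35 with 0.5 added and -0.43 with 0.1 added. Whether its interval stays within 2-fold with 0.1 added was not tested.

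**Figure D3:**
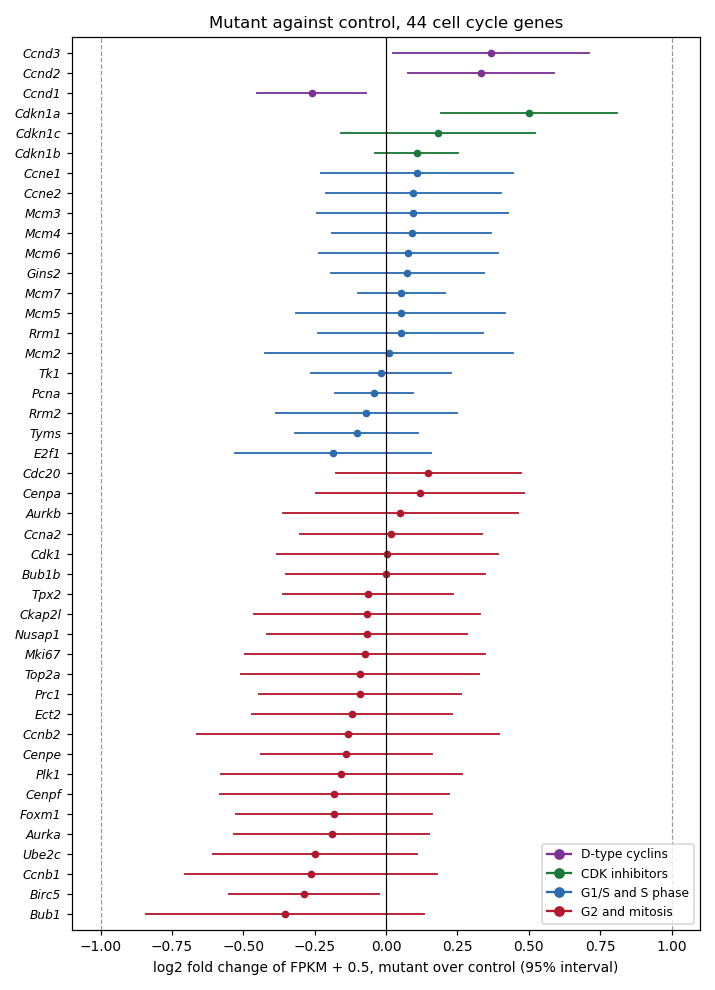
Log2 fold change of FPKM + 0.5, cMU over CT, of each member (point) with its unadjusted 95% interval (line), ordered by class; dashed lines mark a 2-fold difference in either direction. All intervals lie inside the dashed lines, and those of Ccnd1, Ccnd2, Ccnd3, Cdkn1a and Birc5 do not reach 0.

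When the mean log2 level of a class was taken in each sample, relative to the mean of CT, the mitotic genes were at 0.37, -0.10, -0.13 and -0.14 in CT 1 to 4 and at 0.07, -0.20 and -0.18 in cMU 1 to 3. In both genotypes the sample numbered 1 was the highest. The genes of S phase were at 0.15, -0.07, -0.13 and 0.05 in CT and at 0.10, -0.07 and 0.03 in cMU, so that cMU lay within the range of CT. The D-type cyclins were at 0.05, -0.08, 0.02 and 0.01 in CT and at 0.32, 0.07 and 0.05 in cMU. The CDK inhibitors were at -0.07, -0.05, 0.10 and 0.02 in CT and at 0.48, 0.23 and 0.08 in cMU.

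**Figure D4:**
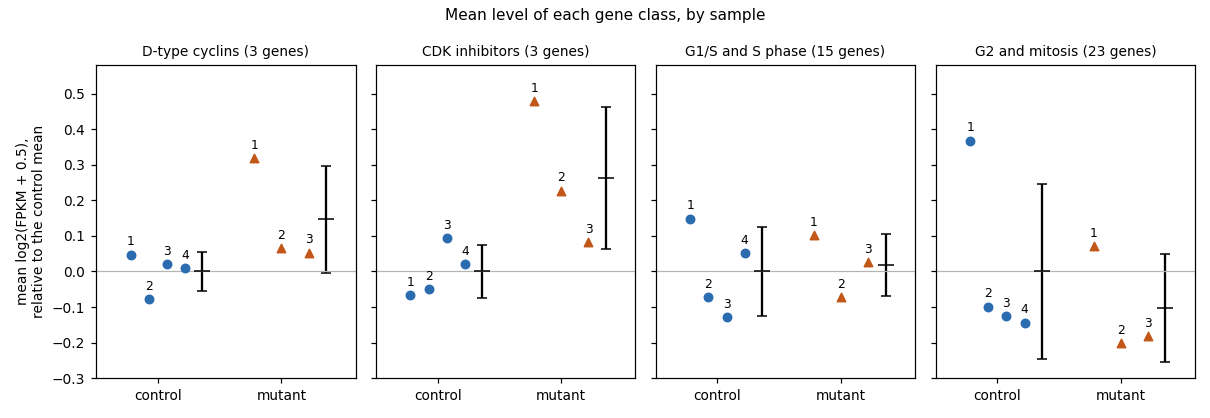
Mean of log2(FPKM + 0.5) over the genes of each class, relative to the mean of CT, in each CT sample (circles) and cMU sample (triangles), labelled by number, with the mean and SD of each group as bars. CT 1 stands at 0.37 for the mitotic genes, and cMU 1 at 0.32 and 0.48 for the D-type cyclins and CDK inhibitors.

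Samples of the same number were compared as pairs, an assumption drawn from these same values, as the labels do not say what a number marks. Same-numbered samples deviated together, with r across genes of 0.17, 0.41 and 0.27. Pair 1 did not stand apart, since CT 4 and cMU 1 had an r of 0.21. For the mitotic genes the class mean of cMU minus that of CT was -0.30, -0.10 and -0.06 in pairs 1, 2 and 3. For the genes of S phase it was -0.05, 0.00 and 0.15. With the number as a block 0 of 44 members passed the threshold, where 8.36% of all tested genes did. In that fit CT 4, which has no cMU sample of its number, adds nothing to the fold changes.

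Marker levels of other cell types are given beside these values. The summed FPKM of 7 genes of meningeal fibroblasts was 1231, 649.4, 856.2 and 963.3 in CT 1 to 4 and 2076, 1103 and 1108 in cMU 1 to 3. It was thus highest in sample 1 of each group, the sample in which the mitotic genes were also highest, and its part in the mitotic levels was not tested. None of these 7 genes passed the threshold, where 2.62% of all tested genes did. All 7 were higher in cMU, with a median log2 fold change of 0.60. Microglial markers (0 of 9 past the threshold) summed to 299.8 to 363.2 in CT and 336.8 to 379.5 in cMU, and vascular markers (0 of 9) to 174.1 to 225.5 and 236.9 to 252.4. The median log2 fold change was 0.11 for microglial markers (8 of 9 higher in cMU) and 0.30 for vascular markers (9 of 9 higher). Neuronal markers were low, with sums of 43.4 to 56.5 and 55.4 to 78.4 over 7 genes, of which 0 passed. Of these 7 genes 6 were higher in cMU, with a median log2 fold change of 0.25.

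OPCs are the dividing cells of the OL lineage, and 3 of 12 of their markers passed the threshold with lower levels in cMU, where 1.36% of all tested genes did. Each of these calls was lost when any 1 of CT 1 to 4 or cMU 3 was left out, with the sign kept, and Cspg4 passed in no fit without a sample (adjusted p of 0.0503 to 0.139), while the adjusted p of Vcan and Neu4 rose to 0.0976 and 0.0972. Cspg4, which encodes NG2, was measured at 11.8, 9.70, 13.0 and 12.2 FPKM in CT and at 8.36, 7.78 and 8.31 FPKM in cMU, without overlap (log2 fold change -0.49, adjusted p = 0.0475). Vcan and Neu4 had log2 fold changes of -0.55 and -0.73 (adjusted p = 0.0265 and 0.0276). Pdgfra, a receptor gene used here as an OPC marker, did not pass, at 58.1, 38.1, 50.8 and 46.6 FPKM in CT and 47.4, 39.3 and 43.6 FPKM in cMU (log2 fold change -0.14, adjusted p = 0.537). Of the 12 markers, 9 were lower and 3 higher in cMU. Summed over the list, OPC markers were at 542.8 to 606.1 FPKM in CT and 400.7 to 493.2 FPKM in cMU. Tnr, with a mean of 287.7 FPKM in CT 2 to 4, made up much of that sum. The mean log2 level of the list, relative to the mean of CT, was -0.05 to 0.04 in CT and -0.39 to -0.18 in cMU. The median log2 fold change was -0.31 for the list and -0.09 and 0.05 for the mitotic and S phase members.

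Of 9 markers of newly formed OLs, 2 passed with lower levels, where 1.36% of all tested genes did (Rras2 and Gpr17, log2 fold changes of -0.64 and -0.55). In all, 8 were lower and 1 higher, and the sums were 1393 to 1575 FPKM in CT and 979.1 to 1211 FPKM in cMU. Of 9 astrocyte markers, 4 passed with higher levels, where 1.26% of all tested genes did (Aldh1l1, Slc1a2, Aldoc and Gja1, log2 fold changes of 0.55, 0.67, 0.63 and 0.64). All 9 were higher in cMU, and the sums were 3267 to 3680 FPKM in CT and 4104 to 5051 FPKM in cMU. Gfap, with a mean of 1542 FPKM in CT 2 to 4, made up much of that sum. All 9 marker calls, of OPCs, newly formed OLs and astrocytes, were lost without CT 1, CT 2, CT 3 or cMU 3, each left out alone, and all signs were kept. Gpr17 and Slc1a2 lost theirs without CT 4 as well, and Neu4, Rras2 and Gpr17 without cMU 1. Leaving out 1 sample gave adjusted p-values up to 0.111 for Rras2, 0.114 for Gpr17, 0.0847 for Aldh1l1, 0.131 for Slc1a2, 0.0804 for Aldoc and 0.0876 for Gja1. No listed marker was at 0 in any sample. The part of these shifts in the levels of the cell cycle genes was not tested.

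Further genes of the cycle, in lists that hold no member, gave no call either. Of 24 tested genes of G1 control, 36 of DNA replication and 45 of mitosis, 0 passed the threshold in each list by limma-trend, where 2.62% of all tested genes did. Counts of 0 in lists of this size are close to that share. An unadjusted p under 0.05 was reached by 6, 3 and 1 of them, against 24.4% of all tested genes. In the mitosis list 33 of 45 were lower in cMU, with a median log2 fold change of -0.07, and 17 of 45 were lower without CT 1, with a median of 0.03. CT 1 was the highest of the 7 samples for 39 of 47 genes of that list, and for 14 of 37 of the list of DNA replication. The median log2 fold changes of the lists of G1 control and DNA replication were -0.04 and -0.01. CHR letters occurred in 28 of 36 genes of the mitosis list and 7 of 29 of the replication list (77.8% and 24.1%), and E2F letters in 4 of 36 and 13 of 29 (11.1% and 44.8%).

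Within these lists the highest and the lowest fold change were read out by rule. In G1 control these were Btg2, an antiproliferative gene, at a log2 fold change of 0.43 (adjusted p = 0.257), and E2f3, an activating E2F factor, at -0.29 (adjusted p = 0.0598). E2f3 was measured at 14.7, 15.2, 14.9 and 15.2 FPKM in CT and at 11.3, 12.9 and 12.3 FPKM in cMU, with no overlap. In DNA replication they were Slbp, a binder of histone mRNA, at 0.24 (adjusted p = 0.1505), and Cdc7, a kinase that fires origins, at -0.53 (adjusted p = 0.0613). Cdc7 was measured at 3.43, 4.53, 4.66 and 3.67 FPKM in CT and at 2.84, 2.64 and 2.49 FPKM in cMU, again with no overlap. In the mitosis list they were Cdc25b, a phosphatase that activates CDK1, at 0.36 (adjusted p = 0.250), and Hjurp, a chaperone of the centromeric histone, at -0.48 (adjusted p = 0.142).

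**Figure D5:**
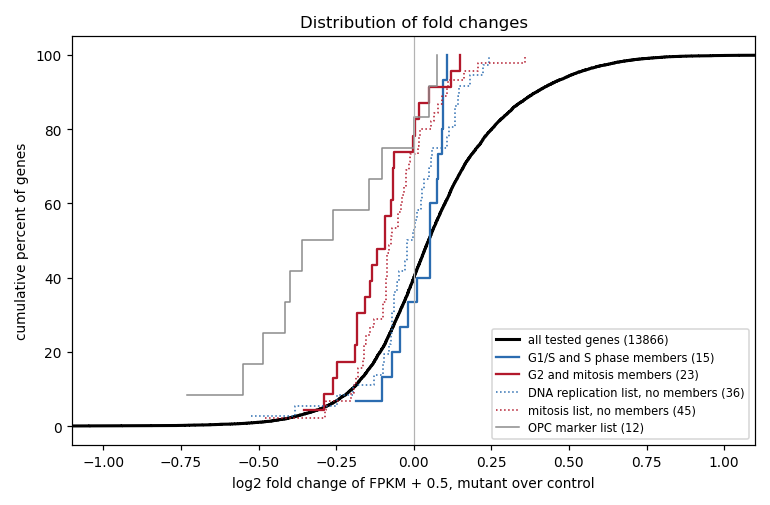
Cumulative percent of genes against the log2 fold change of FPKM + 0.5, cMU over CT, for all 13866 tested genes (black), the members of S phase (blue) and mitosis (red), the further lists of DNA replication and mitosis (dotted) and the OPC markers (gray). Over most of their range the mitotic members lie to the left of those of S phase (medians -0.09 and 0.05), and the OPC markers lie further left (median -0.31).

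Overlaps in the annotation may limit 11 of the members. The paper names a stranded library kit, but whether counting used the strand is not stated. On the opposite strand, Ccnd1 overlaps Oraov1, Ccnd3 overlaps Bysl, Ccne2 overlaps Ints8, Mcm7 overlaps Ap4m1 and Cops6, Gins2 overlaps Gse1 and Gm20388, Tk1 overlaps Afmid and Gm20708, Ccna2 overlaps Exosc9, Cdc20 overlaps Elovl1, Ube2c overlaps Tnnc2 and Nusap1 overlaps Oip5. Nusap1 and Foxm1 also share their strand with n-R5s204 and 4933413G19Rik. Reads of these genes and their neighbours may not be told apart.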

How the data were processed

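Polyadenylated RNA of P14 optic nerve was sequenced in 4 CT and 3 cMU samples, grouped by their labels. The submitters' processing notes name STAR 2.5.1b, RSEM 1.2.22, edgeR and GRCm38. The authors deposited 2 values per gene and sample, a normalized count, which is a signal made from RSEM counts and a size factor, and an FPKM value. The authors' fold changes, p-values and FDR, also in the table, were not used.

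Log2(FPKM + 0.5) was tested with limma-trend (limma 3.58.1, R 4.3.3) for genes with at least 0.5 FPKM in at least 3 samples, with genotype as the only term, two-sided, at an adjusted p of 0.05 (Benjamini-Hochberg); the code was tested on simulated data. This scale understates the change of low genes. Reads were estimated by taking the most frequent normalized count of a sample, values at or near 0 aside, as the value of 1 read. Only 75.7% to 81.0% of values of 0.5 to 10 reads came out whole (within 0.05), so the estimated reads were used for depth only and no count model was fitted.

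Same-numbered samples deviated from their group means together (r across genes of 0.17, 0.41 and 0.27, against -0.35 to 0.21 for different numbers), so the numbers were taken to pair the samples; the labels do not say what a number marks. The members and lists were chosen with earlier results of these data known. All members were named, with Fasn, the extremes of each further list, Pdgfra, Cspg4 and every marker past the threshold. The alternatives were other pseudocounts, filters and scalings, normalized counts, the block, and leaving out samples.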

Additional observations from a re-analysis of the deposited data

Results flagged for a closer look

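In the 4 CT samples, 1 value stood apart from the others for 8 of the 44 members, and in each case it was that of CT 1, the highest. The gap to the next sample as a share of the range of CT was 0.876 for Ccnd1, 0.973 for Rrm1, 0.926 for Mki67, 0.881 for Top2a, 0.84 for Cdc20, 0.838 for Cenpe, 0.837 for Nusap1 and 0.918 for Prc1, above Dixon's 95% critical value for 4 samples. The mean log2 level of the mitotic members stood apart likewise, at 0.912, with CT 1 at 0.37 and the other CT samples at -0.14 to -0.10. Chance flags about 1 in 20 groups, and these genes are read from the same samples, so the flags are not independent. In a check of 75 genes and lists, 10 were flagged in all, 9 of them with CT 1 the highest. The last was the mean of the microglial markers, at 0.963, with CT 4 the highest, at 0.17.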

How the results depend on the processing

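In 15 of 16 settings 0 members passed the threshold, and 1 member (Ccnd1) passed without cMU 2. Where few of all tested genes passed, a count of 0 members was nearly fixed and says little about the members. This holds without CT 3 or cMU 3 (6 genes each), without CT 2 (15) and without both samples numbered 1 (35). The fit without cMU 2 had the most calls of those without 1 sample (909). With the block 1159 genes and 0 members passed. Of 704 fold changes of members under an alternative, 638 kept their sign and their side of the threshold, 65 turned sign without a call, and 1 passed the threshold. Of 272 for the other named genes, 205 kept sign and side, 64 lost their call and 3 gained one. The number of genes past the threshold was 363 (175 higher, 188 lower). It was 95 (33 higher, 62 lower) with no filter, 241 (94 higher, 147 lower) with FPKM rescaled to an equal sum in every sample, 431 (135 higher, 296 lower) with TMM scaling, 370 (103 higher, 267 lower) on normalized counts and 35 (15 higher, 20 lower) without both samples numbered 1, a setting chosen after seeing the data, in which the median of the D-type cyclins was 0.14. With the replicate number as a block, for the pairing, it was 1159 (890 higher, 269 lower), and the block changed no call of a member. Leaving out 1 sample gave 6 to 909 genes (1 to 565 higher, 4 to 344 lower) and 0 to 1 members, with 62 genes without CT 1, 15 without CT 2, 6 without CT 3, 119 without CT 4, 191 without cMU 1, 909 without cMU 2 and 6 without cMU 3. The medians of the D-type cyclins then ran from 0.16 to 0.41, those of the mitotic members from -0.16 to 0.02, those of S phase from -0.02 to 0.09 and those of the CDK inhibitors from 0.08 to 0.29. In the main fit the medians were 0.33 for the 3 D-type cyclins and 0.18 for the 3 CDK inhibitors. Each is the value of 1 gene, and of the cyclins Ccnd1 was lower in cMU while Ccnd2 and Ccnd3 were higher. The planned count tests in edgeR and DESeq2 were not run, because whole reads could not be recovered. Depth limits the lowest members most, with as few as an estimated 54 reads behind a value. The causes of these shifts were not tested.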
